A study of Homo sapiens with 16 samples.

Results

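C2CD4A, C2CD4B, CABP7 and ELFN1 are 4 of the 63187 genes in the count table of a neuroblastoma experiment on HIF-2α. They were chosen by name, from earlier results of these data, as genes with few counts that were higher with each transfected form of HIF-2α than in the cells labelled wild type. Their levels against wild type were therefore used to choose them and are given here as a description, with no test of a difference from wild type. A check for outlying batches, given near the end, also uses differences from wild type. Other tests of these genes are kept to values that the choice did not use. These are the differences between the transfected forms, between the batches, and the relation to the amount of HIF-2α RNA. C2CD4A, CABP7 and ELFN1 passed the low-count filter that left 19530 genes for testing, and C2CD4B did not. C2CD4B was at 0 counts in 10 of the 16 libraries, so its counts do not show the pattern that the set was chosen for.

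RNA was sequenced from the neuroblastoma line SK-N-BE(2), of human origin, in 4 groups of 4 libraries. The group WT was labelled wild type, and the 3 other groups were transfected with a form of HIF-2α, the oxygen-regulated transcription factor subunit encoded by EPAS1. FL received the full-length protein. NCTAD received the form named ΔN-CTAD in the design text and cIDR the one named Δc-IDR there; both are read as lacking the region named, although the sample labels omit the Δ. All 16 samples were grown at 21% oxygen in medium with 10% serum. The vector, the time after transfection and any empty vector in WT cells are not given in the sources used here, so an effect of transfection cannot be told apart from one of HIF-2α in a comparison with WT. Each replicate number, 1 to 4, is also labelled a batch, and each batch holds 1 library of every group. The labels do not say that the libraries of a group came from separate cultures, so p-values measure the spread between these libraries, which may be partly technical.

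HIF-2α is one of the subunits that pair with ARNT and bind hypoxia response elements, whose core letters are ACGTG or GCGTG, and in normal oxygen the subunit is hydroxylated and degraded. C2CD4A and C2CD4B encode related nuclear proteins named after the C2 calcium-dependent domain; they were first described as nuclear factors that inflammatory cytokines raise in endothelial cells, and have since been studied mostly in pancreatic islets. CABP7, also called calneuron 2, is a calcium sensor with EF hands that sits on Golgi membranes and inhibits the lipid kinase PI4KB, which makes phosphatidylinositol 4-phosphate there. ELFN1 is a transmembrane protein with leucine-rich repeats and a fibronectin domain, which recruits group III metabotropic glutamate receptors to synapses and whose inner part binds protein phosphatase 1.

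C2CD4A (ENSG00000198535.5) lies at chr15:62066977-62070917 and C2CD4B (ENSG00000205502.4) at chr15:62163535-62165285 on the opposite strand, with 92617 bases between them. CABP7 (ENSG00000100314.4) lies at chr22:29720003-29731833 and ELFN1 (ENSG00000225968.8) at chr7:1666064-1747946. All coordinates are those of the RefSeq annotation of GRCh38.p14. The promoter windows are shown because HIF-2α, the factor that was changed in these cells, binds known letters in DNA. Each window runs 5′ to 3′ in the direction of transcription, from 250 bases before the RefSeq start to 50 bases after it, and capitals mark CACGTG in C2CD4A, the reverse complement CACGC of the letters GCGTG in C2CD4B, and TATAA in both.
C2CD4A, chr15:62066727-62067026, plus strand: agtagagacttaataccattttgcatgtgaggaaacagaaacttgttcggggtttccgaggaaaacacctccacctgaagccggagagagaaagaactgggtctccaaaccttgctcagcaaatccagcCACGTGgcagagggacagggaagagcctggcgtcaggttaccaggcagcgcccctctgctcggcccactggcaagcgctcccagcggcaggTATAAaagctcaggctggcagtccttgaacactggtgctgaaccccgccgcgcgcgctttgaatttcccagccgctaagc
C2CD4B, chr15:62165236-62165535, minus strand: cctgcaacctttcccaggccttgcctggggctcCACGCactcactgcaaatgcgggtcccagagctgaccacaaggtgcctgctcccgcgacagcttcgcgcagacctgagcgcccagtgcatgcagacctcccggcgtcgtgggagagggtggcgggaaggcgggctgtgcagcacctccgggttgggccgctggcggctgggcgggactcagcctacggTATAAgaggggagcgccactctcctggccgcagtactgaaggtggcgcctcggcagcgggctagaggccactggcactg
CABP7, chr22:29719753-29720052, plus strand: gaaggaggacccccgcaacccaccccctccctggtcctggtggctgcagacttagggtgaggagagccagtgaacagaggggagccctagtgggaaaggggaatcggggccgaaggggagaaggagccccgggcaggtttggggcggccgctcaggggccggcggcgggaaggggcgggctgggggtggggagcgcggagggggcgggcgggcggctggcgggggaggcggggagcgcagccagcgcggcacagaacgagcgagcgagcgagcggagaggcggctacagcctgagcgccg
ELFN1, chr7:1665814-1666113, plus strand: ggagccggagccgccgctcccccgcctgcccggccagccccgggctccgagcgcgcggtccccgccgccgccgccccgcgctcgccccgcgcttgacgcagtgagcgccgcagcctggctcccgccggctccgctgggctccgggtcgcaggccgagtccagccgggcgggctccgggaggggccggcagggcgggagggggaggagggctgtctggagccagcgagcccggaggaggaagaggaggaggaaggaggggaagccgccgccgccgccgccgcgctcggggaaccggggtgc
Both core motifs, the palindrome CACGTG and the motif TATAA were searched on both strands of 35116 RefSeq promoter windows. C2CD4A held CACGTG 121 bases before its start, which overlaps the core motif ACGTG on each strand, and C2CD4B held GCGTG 217 bases before its start on the other strand. ACGTG was found in 21.4% of all windows, GCGTG in 36.5% and CACGTG in 7.26%. Neither CABP7 nor ELFN1 held ACGTG or GCGTG in the window shown, and a second ELFN1 start, with the window chr7:1670027-1670326, held none either. Both C2CD4 genes held TATAA, the core of a TATA box, 30 bases before the start in C2CD4A and 29 in C2CD4B, a motif present in 20.4% of the windows. The GC content of the windows was 57.0% for C2CD4A, 68.7% for C2CD4B, 74.7% for CABP7 and 82.0% for ELFN1, and the median of all windows was 58.7%. A match is a description of these letters and not a measured binding site.

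Libraries held 38.6 to 56.1 M (mega) estimated counts, so 1 count was worth 0.0176 to 0.0271 CPM (counts per 1 M counts, on TMM-scaled library sizes). Intervals of a library's CPM are exact binomial (Clopper-Pearson) at 95%, and like all intervals and floors from counts they cover counting error only. Of 9 noradrenergic neuroblastoma markers, 8 were above 1 TPM (transcripts per 1 M, a scale per transcript length) in every library, and the ninth, TH, ranged from 0.926 to 11.2 TPM. Of 13 markers of fibroblasts, leukocytes, epithelium and endothelium, 10 were under 1 TPM in every library, with KRT5 at 0 counts throughout and PTPRC at 0 to 2 counts. The fibroblast markers LUM and DCN were above 1 TPM in every library, at 15.9 to 53.8 and 7.19 to 19.7 TPM. The 13 markers summed to 28.3 to 73.0 TPM for WT libraries, 26.8 to 68.2 for FL, 25.7 to 73.1 for NCTAD and 27.5 to 70.9 for cIDR. With the batch as a block, edgeR called the endothelial marker VWF, at 4 to 77 counts in a library, higher in cIDR than in WT by 1.65 ± 0.34 (log2 ± SE, adjusted p = 0.0439), beside 0.486% of all genes called. The call was lost without the block, without batch 2 and without the NCTAD library of batch 2 alone. DESeq2 with the block also called VWF in cIDR, where it called 0.799% of all genes. VWF was also higher in 4 of 4 batches with FL (1.26 ± 0.33, edgeR adjusted p = 0.413) and NCTAD (0.88 ± 0.34, adjusted p = 0.682), which were not called. CDH5, also endothelial, at 1 to 49 counts, was higher than in WT in 4 of 4 batches with every construct, by 0.90 ± 0.53 (FL), 2.11 ± 0.50 (NCTAD) and 1.32 ± 0.51 (cIDR), which edgeR with the block did not call (adjusted p = 0.92, 0.121 and 0.768). DESeq2 with the block called CDH5 in NCTAD, where it called 0.860% of all genes. DCN was at −0.29 ± 0.08 in NCTAD against WT and lower in 4 of 4 batches (edgeR with the block, adjusted p = 0.243). Of the 9 noradrenergic markers, edgeR with the block called 2 higher in NCTAD and in cIDR than in WT and 0 in FL, beside 0.456%, 0.486% and 0.102% of all genes. These were TH, at 1.27 ± 0.17 in NCTAD and 1.06 ± 0.17 in cIDR (edgeR adjusted p = 0.0022 and 0.00953), and DBH, which makes noradrenaline from dopamine, at 0.61 ± 0.07 and 0.51 ± 0.07 (edgeR adjusted p = 0.00035 and 0.00131). In FL, TH was at 0.83 ± 0.17 and DBH at 0.36 ± 0.07, each higher than in WT in 4 of 4 batches (edgeR with the block, adjusted p = 0.121 and 0.0681). DESeq2 with the block called both TH and DBH in FL, NCTAD and cIDR. It called 0.860% of all genes in NCTAD and 0.799% in cIDR. In edgeR with the block without batch 2, both were called in NCTAD, DBH alone in cIDR and neither in FL. There 0.325% and 0.241% of all genes were called in NCTAD and cIDR. Without the block edgeR called 0 of the 9 in each comparison with WT, with 0 or 1 at an unadjusted p under 0.05, and DESeq2 without the block called 0. The part of these markers in the levels below was not tested. The islet genes GCG and PDX1 had 0 counts in every library and INS had at most 1. EPAS1, the transfected gene, was at 13.0 to 28.1 CPM in the 4 WT libraries and at 1320 to 5850 CPM in the 12 transfected ones. It thus matched the label as WT or transfected in all 16. The ranges of the transfected forms overlapped, so the form in each library was not checked. EPAS1 counts join endogenous and transfected sequence.

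C2CD4A was low in WT and higher in each transfected library of the same batch. Its estimated counts in batches 1 to 4 were 51, 215, 15 and 21 in WT, 166, 763, 98 and 96 in FL, 311, 597, 257 and 190 in NCTAD, and 83, 531, 83 and 50 in cIDR. In CPM the WT libraries were at 1.06, 4.00, 0.362 and 0.461, the FL libraries at 4.03, 14.9, 2.11 and 1.91, the NCTAD libraries at 7.22, 12.1, 4.65 and 4.09, and the cIDR libraries at 2.25, 9.35, 1.72 and 1.13. Batch 2 was highest in every group, and the WT library of batch 2 was above the FL libraries of batches 3 and 4 and the cIDR libraries of batches 1, 3 and 4. NCTAD did not overlap with WT, whereas FL and cIDR did. The thinnest value, 15 counts in WT of batch 3, had an interval of 0.203 to 0.597 CPM. The ratio of CPM to the WT library of the same batch was 3.78, 3.73, 5.82 and 4.15 for FL, 6.79, 3.01, 12.9 and 8.86 for NCTAD, and 2.11, 2.34, 4.76 and 2.45 for cIDR. The mean log2 difference over the 4 batches was 2.03 ± 0.25 for FL, 2.72 ± 0.83 for NCTAD and 1.40 ± 0.49 for cIDR (SD, n = 4). Fewer cells that express the gene and less RNA per cell cannot be told apart in these bulk samples, here and in what follows.

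C2CD4B was close to undetected. Its estimated counts in batches 1 to 4 were 0, 2, 0 and 0 in WT, 0, 5, 0 and 0 in FL, 1, 7, 0 and 0 in NCTAD, and 0, 1, 1 and 0 in cIDR. Of the 17 counts in all, 15 came from batch 2. The floor used here for a count of 0, which is 3 counts, was 0.0543 to 0.0812 CPM in the 10 libraries at 0. Summed over a group, WT had 2 counts (exact Poisson interval 0.242 to 7.22), FL 5 (1.62 to 11.7), NCTAD 8 (3.45 to 15.8) and cIDR 2 (0.242 to 7.22). The intervals cover counting error only and overlap for every pair of groups, and with this few counts, nearly all of 1 batch, the groups cannot be ordered. In batches 1, 3 and 4 FL was at 0 like WT, and in batch 2 cIDR had 1 count beside 2 in WT. C2CD4A and C2CD4B share 190 runs of 31 bases, which are 5.56% of those in the C2CD4A transcript and 12.3% of those in the C2CD4B transcript, so reads from one can be assigned to the other. The assignment was split in 2 libraries, both NCTAD, where the counts were not whole; C2CD4B had 1.01 of the 312 counts of the pair in batch 1 and 7.03 of 604 in batch 2. The 2 other family genes were also near 0, with 0 to 12 counts of C2CD4C and 0 or 1 of C2CD4D in a library.

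CABP7 was set apart by batch 2. Its estimated counts in batches 1 to 4 were 37, 1234, 38 and 45 in WT, 123, 2117, 172 and 174 in FL, 166, 1897, 285 and 239 in NCTAD, and 131, 2634, 171 and 160 in cIDR. In CPM the WT libraries were at 0.772, 23.0, 0.917 and 0.988, the FL libraries at 2.99, 41.5, 3.70 and 3.47, the NCTAD libraries at 3.86, 38.3, 5.16 and 5.14, and the cIDR libraries at 3.55, 46.4, 3.55 and 3.61. The WT library of batch 2 was above all 9 transfected libraries of the other batches, which lay between 2.99 and 5.16 CPM, so every construct overlapped with WT over the 4 batches. Without batch 2 no construct overlapped with WT, whose 3 libraries lay between 0.772 and 0.988 CPM. The ratio to the WT library of the same batch was 3.87, 1.80, 4.03 and 3.51 for FL, 4.99, 1.67, 5.63 and 5.20 for NCTAD, and 4.59, 2.02, 3.87 and 3.66 for cIDR. In CPM the difference from WT was larger in batch 2 than in the others: 18.5, 15.3 and 23.4 CPM for FL, NCTAD and cIDR, against 2.21 to 4.24 CPM in batches 1, 3 and 4. On the log2 scale it was smaller there, at 0.85, 0.74 and 1.01 against 1.77 to 2.44. The mean log2 difference from WT was 1.62 ± 0.52 for FL, 1.94 ± 0.81 for NCTAD and 1.72 ± 0.49 for cIDR (SD, n = 4), and without batch 2 it was 1.87 ± 0.10, 2.34 ± 0.09 and 1.96 ± 0.16 (SD, n = 3).

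ELFN1 had few counts in WT outside batch 2. Its estimated counts in batches 1 to 4 were 7, 124, 25 and 9 in WT, 79, 596, 71 and 98 in FL, 190, 471, 214 and 178 in NCTAD, and 67, 390, 115 and 55 in cIDR. In CPM the WT libraries were at 0.146, 2.31, 0.603 and 0.198, the FL libraries at 1.92, 11.7, 1.53 and 1.95, the NCTAD libraries at 4.41, 9.51, 3.87 and 3.83, and the cIDR libraries at 1.81, 6.87, 2.39 and 1.24. Every NCTAD library was above every WT library, whereas WT of batch 2 lay above the FL libraries of batches 1, 3 and 4. The interval of the lowest library, WT of batch 1 with 7 counts, was 0.0587 to 0.301 CPM. Ratios to the WT library of the same batch were the most scattered of the 3 genes, at 13.1, 5.06, 2.53 and 9.88 for FL, 30.2, 4.12, 6.42 and 19.4 for NCTAD, and 12.4, 2.97, 3.96 and 6.28 for cIDR. Both of the highest ratios, 30.2 and 19.4, rest on WT libraries with 7 and 9 counts. The mean log2 difference from WT, which a prior count of 2 shrinks, was 2.51 ± 0.93 for FL, 3.30 ± 1.19 for NCTAD and 2.30 ± 0.76 for cIDR (SD, n = 4). The antisense gene ELFN1-AS1 had 0 to 2 counts in a library.

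Within each batch, all 3 genes that were tested were higher with every construct than in WT, in 4 of 4 batches each. This is what they were chosen for. Without batch 2, all 3 genes lay above WT with no overlap for each construct, and over the 4 batches C2CD4A and ELFN1 did so with NCTAD. By the same count without batch 2, 3.39% of the 19530 tested genes lay above WT with FL, 5.15% with NCTAD and 5.63% with cIDR, and 0.876% did so with NCTAD over the 4 batches. Nothing is read from these counts, since the same contrast chose the genes.

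On the TPM scale, which corrects for transcript length, the order of the genes depended on batch 2. In the means of 4 libraries CABP7 was the highest of the 3 genes, at 2.91 TPM in WT, 5.73 for FL, 5.70 for NCTAD and 6.18 for cIDR. In batch 2 alone it was at 10.4, 18.5, 17.0 and 20.3 TPM, above the median tested gene of those libraries (7.34 to 7.66 TPM). Without batch 2 its means fell to 0.395, 1.46, 1.95 and 1.49 TPM. It then exceeded 13.3% of the tested genes in WT and 29.4%, 33.9% and 30.1% with FL, NCTAD and cIDR. C2CD4A without batch 2 was at 0.269, 1.09, 2.08 and 0.683 TPM, so in NCTAD it stood above CABP7. ELFN1 without batch 2 was at 0.174, 0.804, 1.79 and 0.769 TPM, the lowest of the 3 except in cIDR. Outside batch 2 the means of all 3 genes were below the median tested gene, which was at 6.61 to 7.15 TPM.

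Among the constructs, NCTAD had the highest level of C2CD4A, CABP7 and ELFN1 in batches 1, 3 and 4. C2CD4A was higher in NCTAD than in FL by log2 differences of 0.84, 1.13 and 1.08 in batches 1, 3 and 4 and lower by −0.31 in batch 2. It was lower in cIDR than in FL in 4 of 4 batches (−0.83, −0.67, −0.28 and −0.74) and lower in cIDR than in NCTAD in 4 of 4 (−1.67, −0.37, −1.41 and −1.82). ELFN1 had the same order of NCTAD and the others: NCTAD minus FL was 1.19, −0.29, 1.32 and 0.96, and cIDR minus NCTAD was −1.26, −0.47, −0.69 and −1.59. For ELFN1 the difference between cIDR and FL changed sign between batches, at −0.08, −0.76, 0.63 and −0.63. CABP7 differed less between constructs, with NCTAD minus FL at 0.36, −0.11, 0.48 and 0.56, cIDR minus FL at 0.25, 0.16, −0.06 and 0.06, and cIDR minus NCTAD at −0.12, 0.28, −0.53 and −0.50. In batch 2 NCTAD was below FL for all 3 genes. Without batch 2, the 3 NCTAD libraries lay above the 3 FL and the 3 cIDR libraries for all 3 genes, and cIDR overlapped with FL for all 3. By the same count, 3.39% of all tested genes had NCTAD above FL and 2.92% had NCTAD above cIDR. EPAS1 itself was lower in NCTAD than in FL in batch 2 (1320 against 2000 CPM) and higher in the other batches. In CPM its difference thus changed sign in the same batch as those of the 3 genes. In TPM the EPAS1 values of batch 2 were nearly equal, at 1900 in NCTAD and 1950 in FL. The relation of the 3 genes to EPAS1 over libraries is given after the batches.

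**Figure D1:**
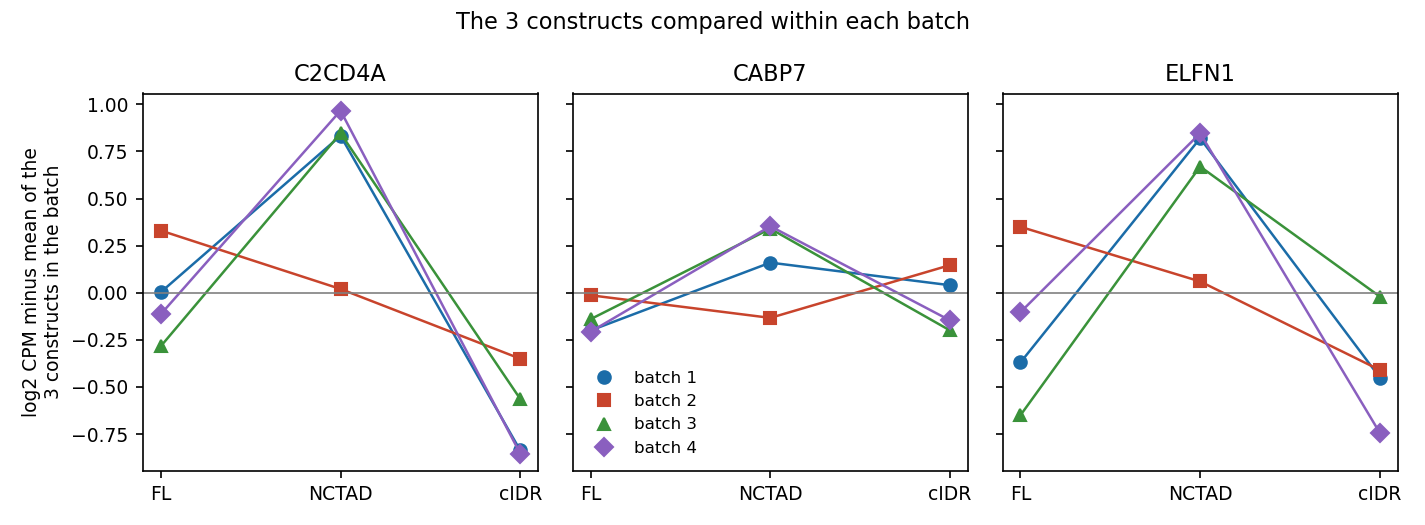
Log2 CPM of each transfected library minus the mean of the 3 transfected libraries of its batch, for C2CD4A, CABP7 and ELFN1. Each line joins the 3 libraries of a batch; NCTAD is highest in batches 1, 3 and 4 for all 3 genes, and FL (C2CD4A, ELFN1) or cIDR (CABP7) is highest in batch 2.

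None of these differences between constructs passed edgeR with all 16 libraries. In the fit without the block, edgeR called 0 of the 3 genes, and 0% of the 19530 genes tested, in NCTAD against FL, cIDR against FL and cIDR against NCTAD. At an unadjusted p under 0.05 it had 173, 177 and 119 genes, and DESeq2 called 2, 0 and 3 (0.0103%, 0% and 0.0154% of those with an adjusted p). The fitted log2 differences of C2CD4A were 0.28 ± 0.81 from FL to NCTAD, −0.66 ± 0.82 from FL to cIDR and −0.95 ± 0.82 from NCTAD to cIDR (± SE, n = 4 a group, edgeR adjusted p = 1 for each). The spread in that fit holds the batch 2 libraries, and with the batch as a block the SE fell to 0.23 to 0.24. C2CD4A then differed by 0.71 ± 0.23 between NCTAD and FL (edgeR adjusted p = 0.996), −0.63 ± 0.24 between cIDR and FL (adjusted p = 1) and −1.35 ± 0.24 between cIDR and NCTAD (unadjusted p = 5.13e-05, adjusted p = 0.321). With the block edgeR called 0%, 0.0307% and 0.00512% of all genes in the 3 comparisons, and again 0 of the 3 described here.

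The call for C2CD4A between cIDR and NCTAD depended on the tool and on 1 library, in fits that were added after seeing the data. DESeq2 with the block called it, at −1.37 with an adjusted p of 3.8e-05, where it called 0.108% of all genes. In edgeR with the block but without the NCTAD library of batch 2, it was −1.67 with an adjusted p of 0.00125, where 0.00505% of all genes were called, so that C2CD4A was the only gene called between cIDR and NCTAD there. In the same fit C2CD4A was also called between NCTAD and FL, at 1.03 with an adjusted p of 0.0463, beside 0.0252% of all genes. Without all 4 libraries of batch 2, cIDR against NCTAD was −1.64 with an edgeR adjusted p of 0.0776. For ELFN1 with the block, edgeR gave 0.78 ± 0.30 from FL to NCTAD, −0.26 ± 0.31 from FL to cIDR and −1.04 ± 0.31 from NCTAD to cIDR, with adjusted p-values of 0.996, 1 and 1. For CABP7 with the block it gave 0.32 ± 0.21, 0.11 ± 0.21 and −0.22 ± 0.21, with edgeR adjusted p-values of 0.996, 1 and 1. The normal 95% intervals for CABP7 ran from −0.08 to 0.73, −0.30 to 0.51 and −0.62 to 0.18, which are ranges for the differences and not limits of detection, since larger differences of C2CD4A and ELFN1 were not called in the same fit.

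An exact permutation test, added after seeing the data, rearranged the 3 construct labels within batches over all 1296 arrangements for a difference among the 3 construct means of log2 CPM. The smallest p it can give is 0.00463. It gave an exact p of 0.0185 for C2CD4A, with means of 2.00 in FL, 2.68 in NCTAD and 1.37 in cIDR. For ELFN1 the exact p was 0.0556, with means of 1.54, 2.33 and 1.33. For CABP7 it was 0.139, with means of 2.67, 2.99 and 2.77. The differences between genes were taken through the same permutation test; as CPM are not scaled by length, only their change between constructs is read. C2CD4A relative to CABP7 had mean log2 CPM differences of −0.67 in FL, −0.31 in NCTAD and −1.41 in cIDR, with an exact p of 0.00926; cIDR was the lowest of the 3 in 4 of 4 batches. ELFN1 relative to CABP7 and C2CD4A relative to ELFN1 each had an exact p of 0.111. After Benjamini-Hochberg adjustment over these 6 permutation tests none passed 0.05, with adjusted p-values of 0.0556 for C2CD4A and for C2CD4A relative to CABP7 and 0.111 to 0.139 for the rest.

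C2CD4A, CABP7 and ELFN1 all rose in batch 2. In an edgeR fit with group and batch, CABP7 was 13.2-fold higher in batch 2 than in the mean of batches 1, 3 and 4, a log2 difference of 3.72 ± 0.15 (SE, adjusted p = 5.61e-11). C2CD4A was 4.82-fold higher, at 2.27 ± 0.18 (edgeR adjusted p = 7.89e-08), and ELFN1 4.52-fold higher, at 2.18 ± 0.24 (edgeR adjusted p = 2.27e-06). All 3 genes were higher in batch 2 in each of the 4 groups. The share of all tested genes that rose in batch 2 by the same test was 27.7%. Only 0.154% of the tested genes rose more than CABP7, which is 30 genes, and 0.993% and 1.14% rose more than C2CD4A and ELFN1. The F test for any difference between the 4 batches gave edgeR adjusted p-values of 7.98e-10 for CABP7, 7.36e-07 for C2CD4A and 2.51e-05 for ELFN1, with 53.1% of all tested genes called.

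Other measures moved with batch 2 as well. All 10 hypoxia reference genes rose in batch 2, with a median log2 difference of 1.38 against 0.03 for all tested genes; among them were NDRG1 at 3.27 ± 0.23 and VEGFA, the angiogenic ligand, at 1.50 ± 0.08 (± SE, edgeR). The same list moved with the constructs. With the block, edgeR called 4 of the 10 higher than in WT in NCTAD, 7 in cIDR and 0 in FL. It called 0.456%, 0.486% and 0.102% of all genes there. The medians of the list were 0.34, 0.51 and 0.25 beside 0.02, 0.01 and 0.01 for all tested genes. In the same fit without batch 2 the calls were 3 in NCTAD, 2 in cIDR and 1 in FL (NDRG1). There 0.325% and 0.241% of all genes were called in NCTAD and cIDR. DESeq2 with the block called 4 in NCTAD, 7 in cIDR and 3 in FL (ADM, NDRG1 and VEGFA). It called 0.860% and 0.799% of all genes in NCTAD and cIDR. All genes called in FL by these fits are counted in the last section. Without the block edgeR called 0 in each, with 1, 2 and 1 at an unadjusted p under 0.05, and DESeq2 without the block called 0, 1 and 0. Of the 9 noradrenergic markers 4 rose and 3 fell in batch 2. EPAS1 was at 28.1 CPM in WT of batch 2 and at 13.0, 17.3 and 14.3 CPM in the other WT libraries. The labels give 21% oxygen for batch 2 as for the others. The 13 markers of other cell types summed to 68.2 to 73.1 TPM in batch 2 and 25.7 to 39.5 TPM in the other batches, and 5 of the 7 tested ones rose. LUM had a mean of 50.1 TPM in batch 2 and 16.5, 19.3 and 19.6 TPM in batches 1, 3 and 4. The fibroblast marker COL1A1 had 1.73 TPM and 0.553, 0.51 and 0.589 TPM in the same order. COL3A1, also of fibroblasts, was not higher in batch 2, at 0.0993 TPM there and 0.105, 0.161 and 0.15 TPM in batches 1, 3 and 4. DCN rose by 0.88 ± 0.06, and the endothelial VWF and CDH5 by 2.03 ± 0.23 and 2.22 ± 0.34 (± SE, edgeR log2 differences). KRT5 stayed at 0 and PTPRC, CD3E and PECAM1 at 0 to 3 counts in every library. Their part in the batch difference of the 3 genes was not tested.

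EPAS1 RNA also differed between the constructs. In batches 1 to 4, EPAS1 was at 1690, 2000, 3580 and 3160 CPM in FL, 2200, 1320, 4230 and 3660 in NCTAD, and 4080, 2190, 5850 and 5820 in cIDR. The construct with the most EPAS1 RNA in every batch, cIDR, was the one with the least C2CD4A in every batch. Shortened transcripts give fewer fragments, so these counts are not copies on 1 scale. Over all 12 transfected libraries, log2 CPM of EPAS1 had a Pearson r of −0.811 with C2CD4A (permutation p = 0.00191, Benjamini-Hochberg adjusted over 3 genes 0.00573), −0.599 with CABP7 (permutation p = 0.0423, adjusted 0.0423) and −0.648 with ELFN1 (permutation p = 0.0244, adjusted 0.0366). The Spearman rho was −0.706 (permutation p = 0.0123, adjusted 0.0369), −0.287 (0.362, adjusted 0.362) and −0.538 (0.0732, adjusted 0.11). Without the 2 libraries farthest from the EPAS1 median, r was −0.861, −0.681 and −0.764. These values join the batch 2 libraries, which stand apart with high levels of the 3 genes, to the rest, so r was also computed without batch 2 and with batch means subtracted. Over the 9 transfected libraries of batches 1, 3 and 4, which keep the differences between these 3 batches, log2 CPM of C2CD4A and EPAS1 had a Pearson r of −0.677 (permutation p = 0.0445, adjusted 0.134) and a Spearman rho of −0.483 (permutation p = 0.193, adjusted 0.579). Without the 2 libraries farthest from the EPAS1 median, r was −0.473. For CABP7 r was 0.296 (permutation p = 0.45, adjusted 0.507) and rho 0.283 (permutation p = 0.463, adjusted 0.695), and without the 2 farthest libraries r was −0.19.

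ELFN1 had r = −0.253 (permutation p = 0.507, adjusted 0.507) and rho = −0.15 (permutation p = 0.707, adjusted 0.707), and r was −0.213 without the 2 farthest libraries. With batch means subtracted over the 12 libraries, r with EPAS1 was −0.542 for C2CD4A (exact permutation p = 0.162, adjusted 0.486), 0.103 for CABP7 (0.779, adjusted 0.779) and −0.267 for ELFN1 (0.501, adjusted 0.752). The rho values were −0.517 (exact permutation p = 0.16, adjusted 0.48), 0.252 (0.498, adjusted 0.498) and −0.266 (0.48, adjusted 0.498). Without the 2 farthest libraries the batch-centred r was −0.189 for C2CD4A, 0.246 for CABP7 and 0.118 for ELFN1. After adjustment, none of the relations without batch 2 or with batch means subtracted passed 0.05.

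The genes with the most similar profiles were taken from 13474 tested genes by the Pearson r of log2 CPM over 16 libraries after subtracting batch means, as a description. Those nearest to C2CD4A were CA12, a membrane carbonic anhydrase (r = 0.922), GALNT18 (0.914), ELFN1 (0.913), CHST1 (0.91) and SOX7, a transcription factor of endothelial development (0.906). The nearest to CABP7 were EPAS1 itself (0.958), RTL1, a retrotransposon-derived imprinted gene (0.949), TRIM29 (0.943), NDRG1 (0.937) and ELFN1 (0.93). ELFN1 was nearest to PLGRKT, a plasminogen receptor (0.962), DDC, which makes dopamine from L-DOPA (0.951), IGF2-AS (0.944), CCNE1, the cyclin that drives entry into S phase (0.942), and TH, the first enzyme of catecholamine synthesis (0.936). C2CD4A and CABP7 correlated with each other at 0.9. The libraries behind these values share the step from WT to transfected cells, which chose the 3 genes.

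The relatives and partners of the genes, members left out, gave 0 calls in the 6 comparisons of groups, without or with the block in edgeR. Among all tested genes that fit called 0.0102%, 0.0256% and 0.0102% for FL, NCTAD and cIDR against WT without the block, and 0.102%, 0.456% and 0.486% with it. At these shares 0 calls in lists of this size are no result about the lists. This held for the 11 tested of 19 calcium sensors related to CABP7, the 7 enzymes and regulators of Golgi phosphatidylinositol 4-phosphate, the 18 tested of 27 synaptic leucine-rich repeat proteins related to ELFN1, and the 6 tested of 11 ELFN1 partners. At an unadjusted p under 0.05 there were 0 to 3 genes of a list in a comparison. DESeq2 called none of them without the block and 1 with it, LINGO2, a neuronal leucine-rich repeat protein, which was lower in cIDR than in WT where 0.799% of all genes were called (edgeR with the block −0.36 ± 0.08, adjusted p = 0.0872). PI4KB, the kinase that CABP7 inhibits, had mean levels of 38.8 TPM (WT), 39.2 (FL), 38.8 (NCTAD) and 36.5 (cIDR). GRM7, a group III glutamate receptor, had means of 0.151, 0.0893, 0.128 and 0.141 TPM in that order, with 3 to 25 counts in a library. GRM8, also of group III, had means of 0.334, 0.22, 0.267 and 0.159 TPM, with 8 to 33 counts. Between NCTAD and WT, GRM7 differed by −0.24 ± 0.40 and GRM8 by 0.63 ± 0.37 (edgeR with the block), and neither was called. ELFN2, the nearest relative of ELFN1, had 0 to 14 counts and was not tested. Of the calcium sensors, CABP4 had the lowest adjusted p, for FL against WT with the block (−0.97 ± 0.24, edgeR adjusted p = 0.326). The medians of the lists lay between −0.06 and 0.11 over the 6 comparisons in both fits, beside −0.01 to 0.02 for all tested genes.

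Neighbouring genes were counted in the same way, against the same shares. The tested protein-coding neighbours among the 5 on each side, leaving out C2CD4A and C2CD4B as neighbours of each other, numbered 8 for C2CD4A, 9 for C2CD4B, 8 for CABP7 and 9 for ELFN1, and 0 of them were called in any of the 6 comparisons by edgeR, without or with the block, or by DESeq2. At an unadjusted p under 0.05 there were 0 to 2 in a comparison. VPS13C, the neighbour of both C2CD4 genes with the lowest adjusted p, differed by 0.23 ± 0.07 between FL and WT with the block (edgeR adjusted p = 0.675). TMEM184A, beside ELFN1, differed by 1.25 ± 0.48 between NCTAD and WT (edgeR with the block, adjusted p = 0.666). In batch 2, where 27.7% of all tested genes rose and 26.1% fell, the lists went in both directions. Of the 11 calcium sensors 6 rose and 0 fell, with CABP1 at 1.21 ± 0.10 (edgeR adjusted p = 1.49e-07). Of the 18 leucine-rich repeat proteins 10 rose and 5 fell, FLRT1 by 2.85 ± 0.17 (edgeR adjusted p = 4.62e-09) and LRRTM1 by −1.51 ± 0.06 (edgeR adjusted p = 4.53e-11). Of the 7 Golgi enzymes and regulators 1 rose and 3 fell, and of the 6 ELFN1 partners 0 rose and 2 fell. The median log2 differences of these 4 lists were 0.21, 0.37, −0.06 and −0.35, beside 0.03 for all tested genes. Of the neighbours, 4 rose and 2 fell for C2CD4A, 5 and 2 for C2CD4B, 3 and 4 for CABP7, and 3 and 1 for ELFN1. TMEM184A was 1 of the ELFN1 neighbours that rose, by 2.52 ± 0.32 (edgeR adjusted p = 1.06e-05). Nothing particular to these lists is read from the counts.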

How the data were processed

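The data are poly(A)-selected stranded RNA-seq of 16 libraries in 4 groups. The deposited estimated counts per gene carry Salmon's name in the table, and the authors' processing used fastp, STAR, Salmon and featureCounts with GRCh38, per the submitters' processing notes, which give no roles. The deposited TPM values cover the same genes and libraries, divided by the authors by transcript length and brought to 1 common total per library. Versions and annotation release are not given in the sources used here. Columns of the deposited tables name the groups differently from the labels, and groups follow the labels.

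Rounding to whole numbers changed 15.5% of the estimated counts. After filterByExpr by group, 19530 genes were tested with edgeR 4.0.16 (R 4.3.3; TMM, quasi-likelihood, group as the only term, 1 fit over 16 libraries), with Benjamini-Hochberg adjusted p under 0.05 as the call. The biological coefficient of variation was 0.245, and 0.108 with the batch as a block. The labels call each number a batch, so the numbers pair the libraries: deviations from the group mean correlated at 0.308 on average within a number (0.0674 to 0.712) and −0.0945 between numbers. Batch effects were tested with group and batch. CPM were taken on TMM-scaled totals, with a prior count of 2 on the log2 scale. No 2 libraries of a group were copies (chi-square per degree of freedom at least 6.71).

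Alternatives were DESeq2 1.42.0, limma 3.58.1 on log2(TPM + 1) and log2(TPM + 0.1), other size factors, prior counts and filters, and single libraries left out, without the block in comparisons of groups. Added after seeing the data were single libraries left out with the block, the fits without batch 2, and DESeq2 and limma with the block. So were the permutation tests, the shares of genes without overlap and the TPM means without batch 2. The planned correlation with EPAS1 over 12 libraries is given beside those without batch 2 and with batch means subtracted. The scripts were tested on simulated data. Members, gene lists and rules were chosen with earlier results of these data known: named are the 4 genes, EPAS1, up to 4 genes of a list with the smallest adjusted p and the 5 most similar genes, besides PI4KB, GRM7 and marker genes, which were named after their values were seen. Promoters are RefSeq windows (GRCh38.p14), found for all 4 genes. Protein sequences were not used here.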

Additional observations from a re-analysis of the deposited data

Results flagged for a closer look

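Of 21 sets of 4 values tested for 1 value far from the other 3, 11 had one, and 9 of the 11 were batch 2. Chance gives about 1 in 20 for a single set, but these sets share libraries and batches, so their number cannot be read against that share. The 9 sets of log2 differences from WT also use the contrast that chose the genes. The measure is the gap to the nearest value over the whole range, judged by Dixon's critical value at 95%. CABP7 stood apart in batch 2 in every group, with WT at 23.0 CPM (0.99), FL at 41.5 (0.981), NCTAD at 38.3 (0.962) and cIDR at 46.4 (0.998). Its log2 difference between NCTAD and WT was lowest in batch 2, at 0.74 (0.894). C2CD4A stood apart in batch 2 in FL at 14.9 CPM (0.838) and in cIDR at 9.35 CPM (0.864), and ELFN1 in FL at 11.7 CPM (0.958) and in NCTAD at 9.51 CPM (0.897). In batch 3, the log2 difference of C2CD4A from WT was the highest, at 2.41 for FL (0.854) and 2.13 for cIDR (0.842); the WT library of that batch had 15 counts.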

How the results depend on the processing

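The low counts of WT (7 to 51 outside batch 2 for C2CD4A, CABP7 and ELFN1) limit the precision of every ratio to it. The number of genes called, of 19530, depended on the fit: it was 2, 5 and 2 for FL, NCTAD and cIDR against WT and 0 for each pair of constructs. The cause of the changes below was not tested.

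For FL against WT, counts of called genes were 11 with DESeq2, 1 with at least 10 counts in every library, 20 with the replicate block, 10 without batch 2, 16 with the block without batch 2, 58 with DESeq2 and the block and 16 with limma on log2(TPM + 0.1) and the block. For NCTAD against WT they were 17, 3, 89, 39, 62, 168 and 47 in the same order, 1 with limma on log2(TPM + 1), 2 on log2(TPM + 0.1), and 2 to 4 with single libraries left out. For cIDR against WT they were 8, 1, 95, 33, 46, 156 and 47, and 1 with only the 8 libraries compared. For NCTAD against FL they were 2 with DESeq2, 5 with the block without batch 2 and 12 with DESeq2 and the block. For cIDR against FL they were 6 with the block, 5 without batch 2, 10 with both and 46 with DESeq2 and the block. For cIDR against NCTAD they were 3 with DESeq2, 1 with the block and 21 with DESeq2 and the block.

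C2CD4A between cIDR and NCTAD passed the threshold with DESeq2 and the block, at −1.37. CABP7 between cIDR and NCTAD turned from 0.13 to −0.22 with the block, −0.12 with log2(TPM + 1), −0.20 with log2(TPM + 0.1) without or with the block, −0.40 without batch 2, −0.38 with the block without batch 2 and −0.25 with DESeq2 and the block. ELFN1 between cIDR and FL turned to 0.033 without batch 2. With single libraries left out, with and without the block, C2CD4A ranged from −0.11 to 1.38 (NCTAD against FL), −1.76 to 0.44 (cIDR against FL) and −2.04 to −0.55 (cIDR against NCTAD), CABP7 from −1.45 to 1.95, −1.85 to 2.08 and −1.87 to 1.60, and ELFN1 from −0.082 to 1.58, −1.23 to 0.78 and −1.57 to −0.38. The mean log2 difference of C2CD4A between FL and WT within batches moved to 1.75 on log2(TPM + 0.1). The r of CABP7 with EPAS1 turned from −0.599 over 12 libraries to 0.296 without batch 2 and 0.103 with batch means subtracted. The batch 2 differences of the 3 genes passed the threshold with each library left out, from 3.46 to 3.97 for CABP7, 2.14 to 2.59 for C2CD4A and 1.97 to 2.49 for ELFN1. The replicate block changed no call between constructs for the 3 genes in edgeR with all libraries.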
